A study of Mus musculus with 6 samples.

Results

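Neutrophils are short-lived granulocytes that leave the bone marrow, circulate in blood and enter inflamed tissue along gradients of CXC chemokines. Mature neutrophils carry large amounts of the mRNAs of S100a8 and S100a9, whose proteins pair to form calprotectin, and of Retnlg, a resistin-like secreted protein of mouse myeloid cells. Their growth factor receptor is encoded by Csf3r, their receptor for the chemokines CXCL1, CXCL2 and CXCL5 by Cxcr2, and the surface antigen by which mouse neutrophils are usually sorted by Ly6g. The chemokine genes Cxcl1, Cxcl2 and Cxcl5 are made by macrophages, epithelium, fibroblasts and tumor cells under IL-1, TNF and IL-17 signals, and Lcn2 encodes lipocalin 2, a siderophore-binding protein of neutrophil granules that epithelium also secretes. These 10 genes, taken by name, were examined among 31130 genes counted in tumor tissue of a mouse model of lung cancer (LC) and of lung cancer with interstitial pneumonia (IP + LC).

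Wild-type female C57BL/6 mice aged 6 to 8 weeks received cells of the Lewis lung carcinoma line, labelled with GFP, in the left lung on day 14, and tumors were taken on day 21. The 3 mice of the IP + LC group had been given bleomycin by the oropharyngeal route at 2.0 mg/kg on day 0 to injure the lung, and the 3 mice of the LC group had been given saline. The labels name the cell type as lung cancer cells, but the RNA came from whole tumor tissue and held transcripts of airway and alveolar epithelium, endothelium and leukocytes in every tumor. A neutrophil transcript in such tissue can differ because there were fewer neutrophils or because each held less of it, among other reasons. These cannot be told apart here. RNA was counted as unique molecular identifiers (UMIs), 1 for each captured molecule, from the 3′ end of the transcript.

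The LC libraries held 592733, 1379759 and 1356381 UMIs and the IP + LC libraries 1344042, 1631066 and 1336919. LC replicate 1 was the shallowest and stood apart, with a Pearson correlation across genes of 0.840 and 0.800 with the other LC tumors, which correlated with each other at 0.962, while the IP + LC tumors correlated at 0.968 to 0.973. LC replicate 1 correlated with the IP + LC tumors at 0.796 to 0.822, a range that includes its correlation with LC replicate 3. The results for the 10 genes are therefore also given without it. Levels are given as CPM, the count per 1000000 UMIs after TMM scaling. A difference was called at a Benjamini-Hochberg adjusted p below 0.1 in edgeR's quasi-likelihood test over 11240 tested genes, and log2 fold changes are IP + LC minus LC, each with its SE. By this rule 16.8% of tested genes were higher in the IP + LC group and 19.6% were lower. All IP + LC tumors lay above all LC tumors for 21.9% of tested genes and below them for 21.2%. Higher genes made up 46.1% of calls with TMM and 58.3% with library size alone.

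Of the 10 genes, 9 had enough UMIs to be tested. S100a8, S100a9 and Retnlg were lower in the IP + LC group, by 5.15-fold to 6.43-fold. Cxcl1 and Cxcl2 were higher, by 5.11-fold and 6.56-fold. Csf3r, Cxcr2, Cxcl5 and Lcn2 were not called, and Ly6g was at or below 3 UMIs in every tumor. Thus 3 of the 9 tested genes were lower, where 19.6% of all tested genes were. The 2 higher genes, Cxcl1 and Cxcl2, passed the filter on low counts through the IP + LC group alone, so their number is not read against the 16.8% of all tested genes that were higher.

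The genes lie in 2 kinds of arrangement on the GRCm38 genome, with positions from GENCODE mouse release M21. S100a8 (chr3:90668978-90670035, plus strand) and S100a9 (chr3:90692632-90695721, minus strand) are neighbours with 22596 bases between them. Cxcl5 (chr5:90759360-90761624), Cxcl1 (chr5:90891241-90893115) and Cxcl2 (chr5:90903871-90905938) share 1 chemokine cluster on the plus strand with Cxcl3 (chr5:90786103-90789600), a further CXCR2 ligand, and Cxcl1 and Cxcl2 are 10755 bases apart. The others have none of the 10 genes beside them, with Csf3r at chr4:126024550-126044440, Cxcr2 at chr1:74153989-74161246, Retnlg at chr16:48872621-48874496 and Ly6g at chr15:75155240-75159126 on the plus strand and Lcn2 at chr2:32384633-32388252 on the minus strand. No exon of these genes overlapped an exon of another gene. Transcripts of other genes matched 48.0% of the Csf3r transcript, 6.89% of Cxcr2, 6.24% of Cxcl2, 6.41% of Cxcl5 and 11.4% of Cxcl3 over at least 81 nucleotides at 95% identity or more, and how reads with several positions were treated is not given in the sources used here, so these counts, that of Csf3r above all, are uncertain.

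The promoters of the genes that moved in opposite directions are shown because the chemokine promoters share a pattern that those of S100a9 and Retnlg do not hold. NF-kappa-B, the factor through which IL-1 and TNF act on chemokine genes, binds a family of related sites. The pattern searched, GGG, 3 free bases and TTCC, covers only some of them. In the 250 bases before the start, searched on both strands in the RefSeq promoter table (GRCm38.p6), this pattern was found in 4.65% of 32851 promoters. Bases -150 to -31 are printed 5′ to 3′ on the gene's strand, with matches in capitals.
Cxcl1 (chr5:90891095-90891214, plus strand): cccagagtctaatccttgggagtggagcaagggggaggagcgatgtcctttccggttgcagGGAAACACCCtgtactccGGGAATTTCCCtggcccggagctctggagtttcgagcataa
Cxcl2 (chr5:90903749-90903868, plus strand): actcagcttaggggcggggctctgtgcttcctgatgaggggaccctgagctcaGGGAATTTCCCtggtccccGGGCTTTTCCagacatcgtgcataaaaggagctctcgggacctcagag
Cxcl3 (chr5:90785951-90786070, plus strand): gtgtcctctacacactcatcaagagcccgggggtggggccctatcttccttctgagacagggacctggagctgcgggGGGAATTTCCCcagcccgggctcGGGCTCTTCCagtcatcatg
S100a9 (chr3:90695752-90695871, minus strand): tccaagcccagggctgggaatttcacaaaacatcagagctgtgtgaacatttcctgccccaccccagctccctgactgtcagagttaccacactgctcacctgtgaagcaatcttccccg
Retnlg (chr16:48872458-48872577, plus strand): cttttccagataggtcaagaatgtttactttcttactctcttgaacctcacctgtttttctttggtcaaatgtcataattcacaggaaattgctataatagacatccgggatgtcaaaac
Cxcl1, Cxcl2 and Cxcl3 each held 3 matches in the 250 bases, of which 2 overlap as the forward and reverse reading of GGGAATTTCCC. This stretch lay at -71 to -61 in Cxcl1, at -97 to -87 in Cxcl2 and at -73 to -63 in Cxcl3. The further match was GGGCTTTTCC at -78 to -69 in Cxcl2, GGGCTCTTCC at -50 to -41 in Cxcl3 and GGAAACACCC, a reverse reading, at -89 to -80 in Cxcl1. Csf3r held 1 match at -129 to -120, and S100a8, S100a9, Cxcr2, Retnlg, Ly6g and Lcn2 held none, which says only that this pattern is not in these bases. TATAAA, the TATA box, was found in 12.4% of promoters and, among these genes, in S100a8 at -30 to -25 and in Cxcl3 at the same bases. In Ly6g it lay farther from the start, at -99 to -94 or at -167 to -162, depending on which of its 2 promoter entries is used. The table matched 9 of the 10 genes, Cxcl5 being the one not found, and a match is a description of letters and not of binding.

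S100a8 had 123, 314 and 635 UMIs in the LC tumors and 50, 102 and 131 in the IP + LC tumors. Its level was 322 ± 170 CPM (SD, n = 3) in LC tumors and 62.5 ± 29.1 CPM in IP + LC tumors, with a log2 fold change of -2.39 ± 0.44 (adjusted p = 0.00563). The highest IP + LC tumor, at 93.4 CPM, lay below the lowest LC tumor, at 209 CPM. S100a9 had 242, 688 and 1322 UMIs in the LC tumors and 84, 199 and 208 in the IP + LC tumors. Its level fell from 671 ± 356 to 107 ± 44.6 CPM, a log2 fold change of -2.66 ± 0.44 (adjusted p = 0.00364), again without overlap. LC replicate 3 was the highest tumor for both genes and IP + LC replicate 1 the lowest. Without LC replicate 1 the log2 fold changes were -2.61 for S100a8 and -2.90 for S100a9 (adjusted p = 8.26e-06 and 1.96e-06).

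Retnlg had the narrower spread. It had 80, 143 and 219 UMIs in the LC tumors and 25, 34 and 40 in the IP + LC tumors, or 141 ± 34.9 against 21.9 ± 5.77 CPM. All IP + LC tumors lay below all LC tumors, and the log2 fold change was -2.70 ± 0.28 (adjusted p = 0.000859). It was -2.72 without LC replicate 1 (adjusted p = 4.28e-07).

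The receptor genes gave other values than the secreted and cytosolic products. Csf3r had 10, 32 and 49 UMIs in the LC tumors and 23, 54 and 35 in the IP + LC tumors. Its level was 27.1 ± 11.7 against 24.1 ± 7.31 CPM, the groups overlapped, and the log2 fold change of -0.23 ± 0.35 was not called (adjusted p = 0.653). Its 95% interval ran from -1.02 to 0.55. Cxcr2 had 8, 15 and 44 UMIs against 18, 38 and 24, or 20.3 ± 13.5 against 17.2 ± 4.47 CPM, with LC replicate 3 above the other 5 tumors. Its log2 fold change was -0.29 ± 0.45 (adjusted p = 0.663), with an interval from -1.30 to 0.72. Without LC replicate 1 the values were -0.40 for Csf3r and -0.43 for Cxcr2 (adjusted p = 0.271 and 0.383), and without LC replicate 3 they were 0.15 and 0.48. Both intervals exclude the estimates of S100a8, S100a9 and Retnlg but leave room for a 2-fold fall of either receptor gene. Ly6g had 0, 0 and 1 UMI in the LC tumors and 2, 0 and 0 in the IP + LC tumors. At a limit of 3 UMIs, which is 5.09 CPM in LC replicate 1 and 1.72 to 2.44 CPM in the other tumors, no difference in Ly6g was detectable at this depth.

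**Figure D1:**
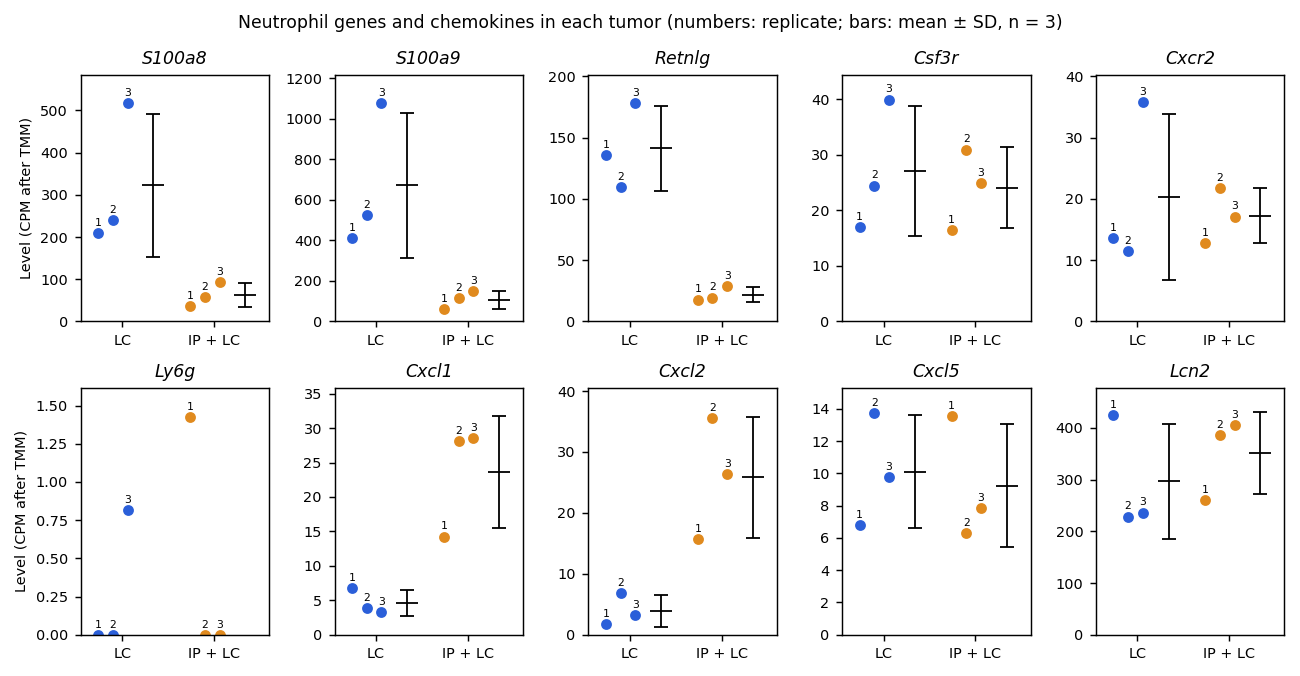
Level in CPM after TMM scaling (y axis, from 0) of the 10 genes in each LC and IP + LC tumor, with points numbered by replicate and bars for the mean ± SD (n = 3; none for Ly6g). S100a8, S100a9 and Retnlg lay lower in all IP + LC tumors, Cxcl1 and Cxcl2 higher, and the other genes overlapped between the groups.

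Because the receptors and the secreted products are read from the same library, their ratio within a tumor does not depend on how libraries were scaled. These ratios were chosen after the values were seen and are given without a test. For each UMI of Csf3r there were 24.2, 21.5 and 27.0 UMIs of S100a9 in the LC tumors and 3.65, 3.69 and 5.94 in the IP + LC tumors. The LC tumors, spread over 411 to 1077 CPM of S100a9, thus lay close together once S100a9 was set against Csf3r. S100a8 gave 12.3, 9.81 and 13 per UMI of Csf3r in the LC tumors against 2.17, 1.89 and 3.74. Retnlg gave 8.0, 4.47 and 4.47 against 1.09, 0.630 and 1.14. None of these ratios overlapped between the groups. Cxcr2 gave 0.800, 0.469 and 0.898 per UMI of Csf3r against 0.783, 0.704 and 0.686, which overlapped. Against Cxcr2 in place of Csf3r, S100a9 gave 30.3, 45.9 and 30.0 in the LC tumors and 4.67, 5.24 and 8.67 in the IP + LC tumors. Between the calprotectin genes themselves, S100a9 gave 1.97, 2.19 and 2.08 UMIs per UMI of S100a8 in the LC tumors and 1.68, 1.95 and 1.59 in the IP + LC tumors.

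**Figure D2:**
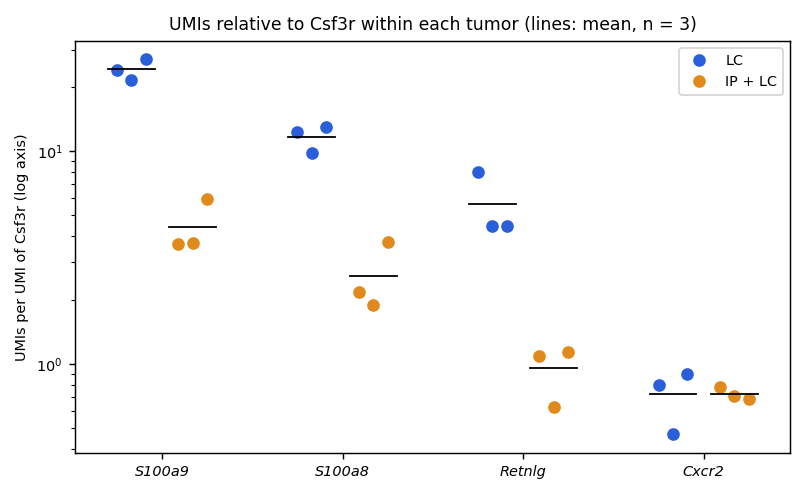
UMIs of S100a9, S100a8, Retnlg and Cxcr2 per UMI of Csf3r (y axis, log scale) in each LC and IP + LC tumor, with lines for the mean (n = 3). The first 3 genes lay lower in every IP + LC tumor, while Cxcr2 overlapped between the groups.

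The receptor genes were also set against Ptprc, in ratios chosen after the values were seen. Ptprc, the CD45 gene of all leukocytes, had 72, 206 and 259 UMIs in the LC tumors and 269, 490 and 387 in the IP + LC tumors, or 164 ± 44.7 against 249 ± 50.1 CPM (log2 fold change 0.59 ± 0.26, adjusted p = 0.132). The groups overlapped and Ptprc was not called, while without LC replicate 1 it was called at 0.43 (adjusted p = 0.0609). For each UMI of Ptprc there were 0.139, 0.155 and 0.189 UMIs of Csf3r in the LC tumors and 0.0855, 0.110 and 0.0904 in the IP + LC tumors, without overlap. Cxcr2 gave 0.111, 0.0728 and 0.170 against 0.0669, 0.0776 and 0.0620, which overlapped, and the count of Csf3r is the more uncertain of the pair.

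The chemokine genes went the other way. Cxcl1 had 4, 5 and 4 UMIs in the LC tumors and 20, 49 and 40 in the IP + LC tumors, or 4.62 ± 1.90 against 23.6 ± 8.11 CPM. Its log2 fold change was 2.45 ± 0.44 (adjusted p = 0.00494), and all IP + LC tumors lay above all LC tumors. Cxcl2 had 1, 9 and 4 UMIs against 22, 62 and 37, or 3.94 ± 2.66 against 25.9 ± 9.93 CPM, with a log2 fold change of 2.53 ± 0.49 (adjusted p = 0.00651) and no overlap. IP + LC replicate 1 was the lowest tumor of its group for both. Without LC replicate 1 the log2 fold changes were 2.71 and 2.33 (adjusted p = 0.000222 and 0.00065), and without LC replicate 2, which held 9 of the 14 LC UMIs of Cxcl2, that of Cxcl2 was 3.19 (adjusted p = 0.0198). Neither gene was tested when at least 10 UMIs were required in every tumor or when libraries were thinned to the smallest.

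Cxcl5, a CXCR2 ligand made mainly by epithelium, had 4, 18 and 12 UMIs in the LC tumors and 19, 11 and 11 in the IP + LC tumors. At 10.1 ± 3.50 against 9.23 ± 3.81 CPM the groups overlapped, and the log2 fold change of -0.24 ± 0.41 was not called (adjusted p = 0.694, interval -1.17 to 0.68). Lcn2 had 250, 299 and 290 UMIs in the LC tumors and 365, 674 and 569 in the IP + LC tumors. LC replicate 1, at 424 CPM, was the highest of all 6 tumors, the other LC tumors were at 229 and 236 CPM, and the IP + LC tumors were at 260, 386 and 406 CPM. With all tumors the log2 fold change of Lcn2 was 0.24 ± 0.29 and was not called (adjusted p = 0.571, interval -0.42 to 0.90). Without LC replicate 1 it was 0.59 and was called (adjusted p = 0.0118), so in this test the call came only when that library was left out.

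**Figure D3:**
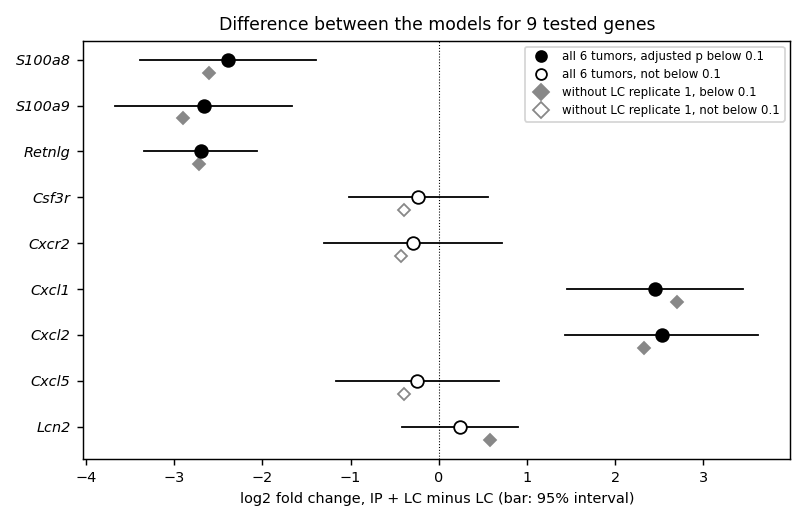
Log2 fold change, IP + LC minus LC (x axis), of the 9 tested genes with all 6 tumors (circles, 95% interval as bars) and without LC replicate 1 (grey diamonds), filled where the adjusted p was below 0.1. S100a8, S100a9 and Retnlg lay near -2.5 and Cxcl1 and Cxcl2 near 2.5 in both fits, and Lcn2 was called in the fit without LC replicate 1 alone.

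The wider sets of neutrophil genes were mixed. Of 15 granule protein genes, 7 were tested, 4 were lower and none was higher, against 19.6% and 16.8% of all tested genes. The median log2 fold change was -1.11 against 0.02 over all tested genes. Ltf, the lactoferrin of secondary granules, fell from 187 ± 43.4 to 47.0 ± 11.8 CPM (log2 fold change -2.0 ± 0.27, adjusted p = 0.00157), and Pglyrp1, a peptidoglycan recognition protein, from 47.0 ± 6.06 to 13.4 ± 3.32 CPM (-1.81 ± 0.25, adjusted p = 0.0018). Hp, haptoglobin, changed by -1.35 ± 0.27 and Lyz2, a lysozyme of myeloid cells and alveolar epithelium, by -1.11 ± 0.25 (adjusted p = 0.0073 and 0.0127). Ltf, Hp and Lyz2 are also transcribed in lung epithelium, so they do not mark neutrophils alone. The 8 untested granule genes had few UMIs, with Mpo, Elane, Ctsg and Olfm4 at 2 or fewer in every tumor, Prtn3 at 2 to 4, Camp at 0 to 7, Ngp at 0 to 9 and Cd177 at 1 to 10. Leaving out LC replicate 1 gave 5 lower and 1 higher, and leaving out IP + LC replicate 3 gave 4 lower and 1 higher.

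Of 16 surface receptor genes of neutrophils, many of which monocytes and macrophages also carry, 13 were tested, 5 were higher and 3 were lower, with a median of 0.67. Among all tested genes 16.8% were higher and 19.6% lower, and the lower count is near that share. C5ar1 and Fpr1 passed the filter on low counts through the group in which they are high alone. Ptafr, the receptor of platelet-activating factor, rose from 26.3 ± 12.6 to 81.2 ± 21.6 CPM (log2 fold change 1.52 ± 0.35, adjusted p = 0.0134). Itgam, the CD11b integrin chain of myeloid cells, rose from 35.5 ± 12.3 to 81.7 ± 14.1 CPM (1.24 ± 0.27, adjusted p = 0.0111). C5ar1, the complement C5a receptor, rose by 1.29 ± 0.41 (adjusted p = 0.0461), a call that was lost without IP + LC replicate 1, 2 or 3 (adjusted p = 0.113, 0.140 and 0.119). Fpr1, the receptor of bacterial formyl peptides, went the other way, with 11, 40 and 30 UMIs in the LC tumors and 18, 12 and 10 in the IP + LC tumors (-1.52 ± 0.34, adjusted p = 0.0121). The counts of higher and lower receptor genes ranged with the tumor left out, from 7 and 3 without LC replicate 1 to 2 and 1 without IP + LC replicate 1 and 2 and 2 without IP + LC replicate 2, and were 3 and 2 without each of the other tumors. At an unadjusted p below 0.05 they were 6 and 2 without IP + LC replicate 1 and 4 and 3 without IP + LC replicate 2.

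A further list of 17 neutrophil-enriched genes in the files gave 9 tested, 2 higher and 5 lower, with a median of -1.06, against 16.8% and 19.6% of all tested genes. Of the calls, 1 higher and 1 lower gene, Wfdc21, passed the filter through the group in which they are high alone. G0s2, a lipolysis inhibitor with high mRNA levels in blood neutrophils and in fat, had 69, 210 and 242 UMIs in the LC tumors and 37, 20 and 25 in the IP + LC tumors (log2 fold change -3.13 ± 0.34, adjusted p = 0.000859). Slpi, a leukocyte protease inhibitor that airway epithelium also secretes, fell from 127 ± 40.8 to 37.8 ± 3.97 CPM (-1.78 ± 0.28, adjusted p = 0.00277), and Wfdc21 from 22.0 ± 5.81 to 6.61 ± 2.77 CPM (-1.74 ± 0.40, adjusted p = 0.0135). Il1b, made by neutrophils and macrophages, rose from 74.4 ± 30.1 to 150 ± 49.1 CPM (1.04 ± 0.33, adjusted p = 0.0477), but the groups overlapped and the call was lost without LC replicate 2 or 3 or IP + LC replicate 1 or 2 (adjusted p = 0.183, 0.136, 0.126 and 0.197). Leaving out any 1 tumor gave 5 lower calls, and the higher calls ranged from 0, when LC replicate 2 or IP + LC replicate 2 was left out (1 and 0 at an unadjusted p below 0.05 in edgeR), to 2.

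**Figure D4:**
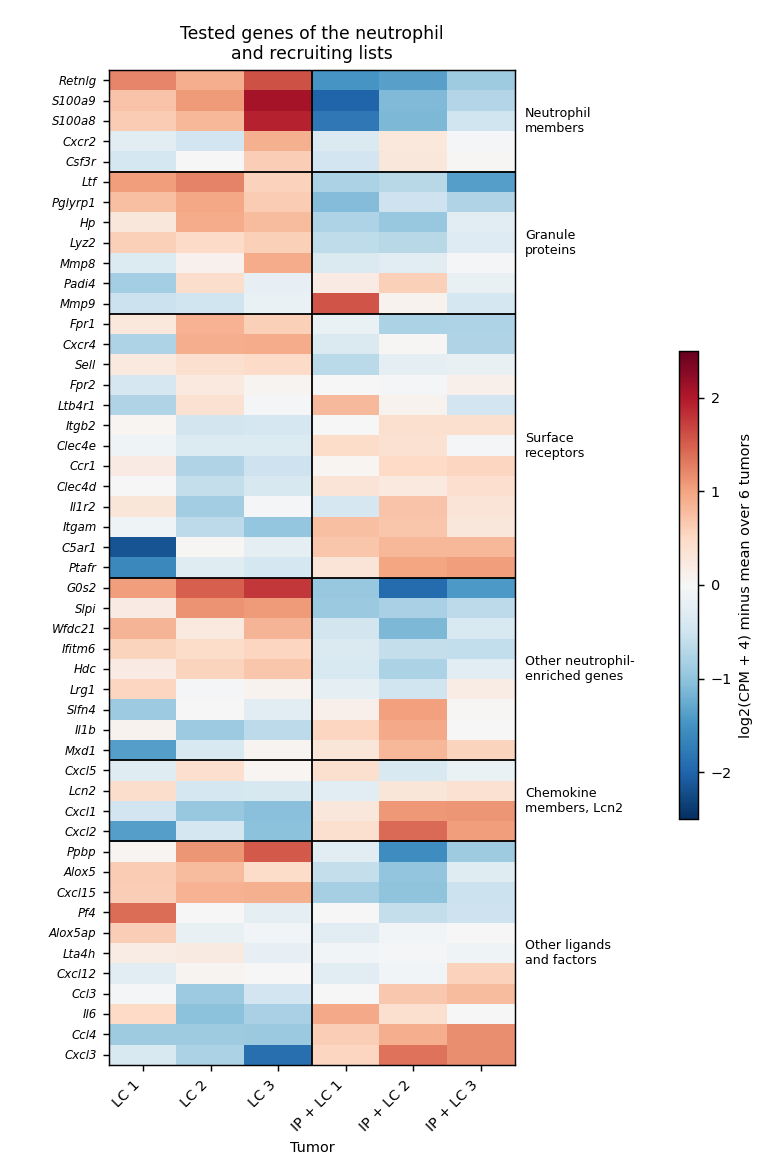
Tested genes of the neutrophil and recruiting lists (rows, ordered by log2 fold change within each list) in the 6 tumors (columns), coloured by log2(CPM + 4) minus the gene's mean over the 6 tumors. The granule list holds 4 lower genes, the other neutrophil-enriched list 2 higher and 5 lower, and the surface receptor list 5 higher and 3 lower. Of all tested genes 16.8% were higher and 19.6% lower. In each of the latter 2 lists, 1 higher and 1 lower gene passed the filter on low counts through the group in which they are high alone.

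Of 19 other CXC ligands and factors that draw neutrophils, 12 were tested, 4 were higher and 3 were lower, with a median of -0.0037. Of these calls, 3 of the 4 higher and 2 of the 3 lower genes passed the filter on low counts through the group in which they are high alone, Cxcl3, Ccl4 and Ppbp among them, so the counts are not read against the 16.8% and 19.6% of all tested genes. Cxcl3, the neighbour of Cxcl1 and Cxcl2, had 14, 22 and 7 UMIs in the LC tumors and 68, 154 and 108 in the IP + LC tumors (log2 fold change 2.31 ± 0.42, adjusted p = 0.00511). It lay above the LC tumors in every IP + LC tumor, as Cxcl1 and Cxcl2 did. Ccl4, a macrophage chemokine, rose from 8.35 ± 0.178 to 39.4 ± 8.22 CPM (2.21 ± 0.28, adjusted p = 0.00137). Cxcl15, lungkine of lung epithelium, went from 2141 ± 211 to 713 ± 118 CPM (-1.60 ± 0.23, adjusted p = 0.00182), and Ppbp, the platelet CXC ligand, from 40.0 ± 20.1 to 8.51 ± 5.44 CPM (-2.35 ± 0.50, adjusted p = 0.0101). Pf4, a further platelet ligand named after its values were seen, was not called (-0.93, adjusted p = 0.139). LC replicate 1 held 193 CPM of it against 71.1 and 59.5 in the other LC tumors, and without that library the log2 fold change was -0.26 (adjusted p = 0.308). Cxcl12, a stromal ligand of CXCR4, was at 105 ± 13.1 and 119 ± 40.5 CPM and was not called (adjusted p = 0.672). Tnf, named here after its values were seen, had 0, 3 and 0 UMIs in the LC tumors and 8, 13 and 12 in the IP + LC tumors and was too low to be tested with all tumors. Without LC replicate 1 it passed the filter through the IP + LC group alone, so its call as higher in that fit (adjusted p = 0.0106) is not read as a result. Il17a had 0 UMIs in every tumor, and Csf3 was not analysed here. Without LC replicate 1 the list gave 6 higher and 3 lower, and without IP + LC replicate 2 it gave 2 higher and 3 lower.

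A list of 22 receptors, adaptors, transcription factors and inhibitors of IL-1, TNF and IL-17 signaling to the chemokine genes had 21 tested. Of these, 10 were higher and 1 was lower, with a median of 0.69, against 16.8% and 19.6% of all tested genes. Of its receptor genes, Tnfrsf1b was higher, and Il1r1, Il1rap, Il17ra and Il17rc were not called. These were named after their values were seen. Il1rn, the IL-1 receptor antagonist, rose from 19.4 ± 2.30 to 72.0 ± 20.1 CPM (log2 fold change 1.87 ± 0.28, adjusted p = 0.00232). Nfkb2, an NF-kappa-B subunit, rose by 1.41 ± 0.33, Tnfaip3, the NF-kappa-B inhibitor A20, by 1.19 ± 0.23, and Cebpb, a transcription factor of myeloid cells, by 1.06 ± 0.26 (adjusted p = 0.0143, 0.0069 and 0.0188). Nfkbia, the NF-kappa-B inhibitor alpha, was at 381 ± 191 and 429 ± 42.4 CPM and Tnfrsf1a, a TNF receptor, at 140 ± 39.1 and 139 ± 3.54 CPM, and neither was called (adjusted p = 0.804 and 0.975). The higher calls ranged from 5 without IP + LC replicate 2 (9 at an unadjusted p below 0.05) to 12 without LC replicate 1.

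Over the 6 tumors, the centred log2(CPM + 4) profile nearest to that of S100a8 was that of S100a9, with a root mean square difference of 0.18, followed by Lrrc10b (0.33), Retnlg (0.36), Cst8 (0.37) and Smim6 (0.38). The profiles nearest to that of Cxcl2, which had the most UMIs of the called chemokine genes among the 10, were those of Trim30a (0.19), Ifit1 (0.19), Sp140 (0.20), Gas2l3 (0.21) and Slfn8 (0.22). Trim30a, Ifit1, Sp140 and Slfn8 are known as interferon-induced genes. Ifit1 had 22, 101 and 71 UMIs in the LC tumors and 198, 397 and 370 in the IP + LC tumors. These are descriptions over 6 tumors that share libraries, and many genes that separate the groups have profiles of this kind.

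Transcripts of red blood cells were also lower in the IP + LC tumors. The 4 globin genes Hba-a1, Hba-a2, Hbb-bs and Hbb-bt, which are near-identical pairs, summed to 1717, 3852 and 7134 CPM in the LC tumors and to 755, 1128 and 2106 CPM in the IP + LC tumors. S100a8 and S100a9 together were at 619, 766 and 1594 CPM and at 95.5, 172 and 242 CPM, in the same order of tumors within each group. For each 100 globin UMIs there were 23.9, 13.7 and 15.1 UMIs of S100a9 in the LC tumors and 7.92, 10.1 and 7.04 in the IP + LC tumors, and 12.2, 6.23 and 7.25 against 4.72, 5.18 and 4.44 of S100a8, without overlap between the groups. For Retnlg the numbers were 7.91, 2.84 and 2.5 against 2.36, 1.73 and 1.35. Csf3r gave 0.988, 0.635 and 0.559 against 2.17, 2.74 and 1.19, higher in every IP + LC tumor. These ratios were chosen after the values were seen, and the part of blood content in the fall of the neutrophil genes was not tested. Of 10 erythroid and platelet markers, 5 were tested and all 5 were lower, with a median of -1.73, against 19.6% of all tested genes. Ppbp, 1 of them, passed the filter through the LC group alone, and leaving out a tumor gave 1 to 5 lower, with 1 without IP + LC replicate 1 or 2, 2 without LC replicate 3 and 3 without LC replicate 2 (3 to 5 at an unadjusted p below 0.05).

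**Figure D5:**
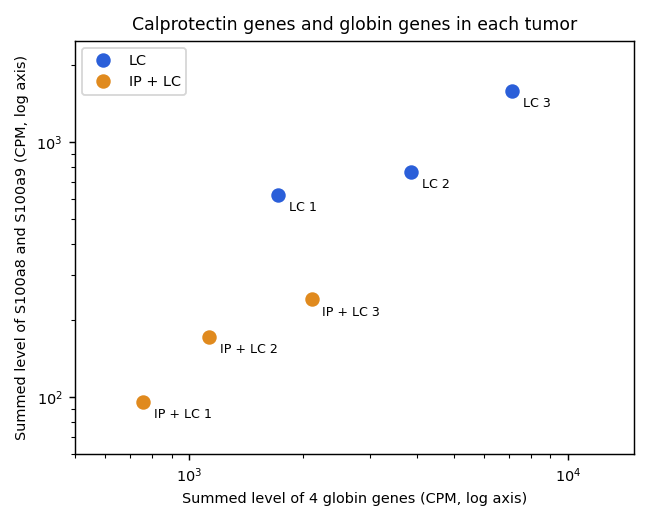
Summed level of S100a8 and S100a9 (y axis, CPM, log scale) against the summed level of 4 globin genes (x axis, CPM, log scale), 1 point for each LC and IP + LC tumor. Within each group both sums had the same order of tumors. The globin sums overlapped between the groups, and the sums of S100a8 and S100a9 did not.

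Markers of normal lung were lower as well, beside 16.8% of all tested genes that were higher and 19.6% that were lower. Airway epithelium markers were lower in 8 of 9 tested genes, with summed levels of 47572 to 56976 CPM in the LC tumors and 3544 to 7340 CPM in the IP + LC tumors, type 2 alveolar markers in 9 of 10, with 36162 to 44250 against 6587 to 11886 CPM, and endothelium markers in 9 of 9, with 1324 to 2161 against 461 to 563 CPM. The markers of alveolar macrophages, which live in air spaces, were lower in 10 of 10, with 1777 to 2194 against 247 to 494 CPM, though 5 of them passed the filter on low counts through the LC group alone. Macrophage markers were higher in 4 of 10 tested genes, with 1513 to 4802 against 3193 to 4015 CPM, and in 8 of 10 without LC replicate 1, but in 1 of 10 without any other single tumor (4 at an unadjusted p below 0.05 without IP + LC replicate 1). Over all genes the higher calls moved too, from 3324 of 11748 without LC replicate 1 to 897 of 11787 without IP + LC replicate 2. Monocyte markers were higher in 5 and lower in 2 of 7 tested genes, with 1005 to 1203 against 1339 to 1632 CPM, and the higher ones were 1 without IP + LC replicate 2 and 3 without LC replicate 2 or IP + LC replicate 3 (4, 5 and 4 at an unadjusted p below 0.05). The summed level of each of these lists stayed above 0 in every tumor, while Fabp1 of the alveolar macrophage list was at 0, 1 and 0 UMIs in the IP + LC tumors. The part of each cell type in the values of the neutrophil and chemokine genes was not tested.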

How the data were processed

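RNA of tumor tissue from 3 LC and 3 IP + LC mice was measured by bulk RNA barcoding and sequencing with 3′ capture. The authors deposited UMI counts per gene, 1 table per tumor with 31130 genes, without normalization. Per the submitters' processing notes and the study's methods, UMIs were extracted and counted with UMI-tools 1.1.1, reads were trimmed with Trim Galore 0.6.7, aligned to GRCm38 with HISAT2 2.2.1 and assigned with featureCounts 2.0.1. The notes also name DESeq2. The annotation release and the strand setting are not given in the sources used here. Totals ran from 592733 to 1631066 UMIs per tumor, and UMI counts carry counting error that SDs over tumors include.

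From these counts, edgeR 4.0.16 in R 4.3.3 was run with filterByExpr (minimum count 10, minimum total 15), TMM scaling and the quasi-likelihood test over 11240 genes, with a Benjamini-Hochberg limit of 0.1. Intervals are at 95% from the same fit. The mice are taken as separate animals from the labels' numbering, and p-values set the difference between groups against the spread between tumors within them. Positions came from GENCODE mouse release M21, promoters from RefSeq, and near-identical transcripts from blastn 2.17.0+. The procedure was also run on simulated data, and no result given here rests on that run.

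The 10 genes, the lists and the rule for genes to name were chosen with earlier results of these data known. The rule takes the 10 genes, in each list up to 3 genes with the most UMIs and up to 3 called genes with the largest changes, and the 5 profiles nearest to S100a8 and to the called chemokine gene among the 10 with the most UMIs. Some of these are given in counts only. Mpo, Elane, Ctsg, Olfm4, Prtn3, Camp, Ngp, Cd177, Pf4, Tnf, Il17a and Ptprc were named after their values were seen. So were Tnfrsf1b, Il1r1, Il1rap, Il17ra and Il17rc. Lists were of granule proteins, surface receptors, other neutrophil-enriched genes, ligands and recruiting factors, IL-1, TNF and IL-17 signaling, NADPH oxidase, and markers of macrophages, monocytes, alveolar macrophages, type 2 alveolar cells, airway epithelium, endothelium, eosinophils, mast cells and basophils, T and B cells, and erythroid cells and platelets. The 17 alternatives were other scaling (DESeq2 size factors, upper quartile, library size), other filters, DESeq2 1.42.0, limma 3.58.1 (voom with and without sample quality weights), a replicate block, a limit of 0.05, thinning to 592733 UMIs (random seed 1), and leaving out each tumor.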

Additional observations from a re-analysis of the deposited data

How the results depend on the processing

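S100a8, S100a9, Retnlg, Cxcl1 and Cxcl2 kept their direction and their call in each alternative that gave a value, 17 for S100a8, S100a9 and Retnlg and 15 for Cxcl1 and Cxcl2. The log2 fold change ranged from -2.76 to -1.87 for S100a8, from -2.94 to -2.14 for S100a9, from -2.90 to -2.48 for Retnlg, from 2.26 to 2.72 for Cxcl1 and from 2.16 to 3.19 for Cxcl2, and the highest adjusted p among them was 0.0463. With at least 10 UMIs required in every tumor, 5 of the 10 genes were tested and 3 called, and with libraries thinned to the smallest, 6 were tested and 3 called, because Cxcl1 and Cxcl2 no longer passed the filter. Leaving out a tumor gave 5 to 6 calls among the 10 genes. Lcn2 became called with voom quality weights (0.51, adjusted p = 0.0512).

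Over all genes the 4088 calls became 6233 with voom quality weights and 2340 after thinning, and leaving out a tumor gave 2265 (IP + LC replicate 2) to 6691 (LC replicate 1) calls. The listed genes gave 97 calls, and 63 to 111 when those tumors were left out. With library size alone 58.3% of calls were higher, against 46.1% with TMM, and the median log2 fold change over tested genes was 0.18 against 0.02. Deviations of same-numbered tumors from their group means correlated at 0.03, -0.12 and 0.11, and those of other pairs at -0.14 to 0.13. With 3 tumors per group these values cannot decide whether the numbers pair the tumors. A replicate block gave 3410 calls over all genes, 5 among the 10 and 95 among the lists.

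The sign turned for these genes, none of them called with all tumors and TMM, and the cause was not tested. On leaving out a tumor, Csf3r ranged from -0.44 to 0.15 (LC replicate 3, with 0.01 for IP + LC replicate 1), Cxcr2 from -0.63 to 0.48 (LC replicate 3) and Cxcl5 from -0.57 to 0.053 (LC replicate 2, with 0.02 for IP + LC replicate 2). Cxcl12 ranged from -0.11 (IP + LC replicate 3) to 0.37, Nfkbia from -0.20 (LC replicate 1) to 0.43, Rac2 from -0.079 (IP + LC replicate 3, with -0.04 for LC replicate 3) to 0.28, and Apoe from -0.72 to 0.13 (LC replicate 1). Tnfrsf1a ranged from -0.23 to 0.16 (LC replicate 1), with 0.03 for LC replicate 2, 0.00 for IP + LC replicate 2 and 0.03 for IP + LC replicate 3. With voom quality weights Cxcr2 was 0.060, Nfkbia -0.063, Apoe 0.0011 and Tnfrsf1a 0.060. After thinning Nfkbia was -0.079 and Rac2 -0.16. Tnfrsf1a was 0.13 with library size alone, 0.095 without a filter, 0.0051 with at least 10 UMIs, 0.023 with voom and 0.013 with the replicate block. The median of the ligands and recruiting factors was 0.15 with library size alone and 0.11 without a filter, and on leaving out a tumor it ranged from -0.12 to 0.37 (IP + LC replicate 1), with 0.08, 0.24 and 0.18 for LC replicates 1, 2 and 3 and 0.06 for IP + LC replicate 2.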

Other observations

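The genes of the phagocyte NADPH oxidase, with which neutrophils and macrophages make superoxide, were all tested, with 4 of 6 higher and none lower in the IP + LC group, against 16.8% and 19.6% of all tested genes, and a median log2 fold change of 0.65. Cybb, the membrane subunit, rose from 137 ± 45.4 to 281 ± 67.3 CPM (log2 fold change 1.00 ± 0.30, adjusted p = 0.0374), and Ncf4, a cytosolic subunit, from 21.8 ± 1.74 to 39.1 ± 8.09 CPM (0.85 ± 0.24, adjusted p = 0.0313). The call of Cybb was lost on leaving out IP + LC replicate 2 or 3 (adjusted p = 0.136 and 0.116) and that of Ncf4 on leaving out LC replicate 2 or IP + LC replicate 2 (adjusted p = 0.108 and 0.129). Rac2 was at 134 ± 28.7 and 141 ± 35.7 CPM and was not called (adjusted p = 0.859). Leaving out LC replicates 1, 2 and 3 in turn gave 4, 1 and 3 higher genes, and leaving out IP + LC replicates 1, 2 and 3 gave 2, 0 and 1 in edgeR, with 4 at an unadjusted p below 0.05 in each of the latter fits.

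Of 10 T and B cell markers, all tested, 5 were lower and none was higher, with a median of -0.55, against 19.6% and 16.8% of all tested genes. Of the lower ones, 2 passed the filter on low counts through the LC group alone. Cd79b, a chain of the B cell receptor, fell from 113 ± 12.3 to 30.8 ± 18.6 CPM (log2 fold change -1.88 ± 0.39, adjusted p = 0.00886), and Ighm was at 400 ± 69.8 and 317 ± 144 CPM and was not called (adjusted p = 0.447). Leaving out LC replicates 1, 2 and 3 in turn gave 5, 2 and 3 lower markers, and leaving out IP + LC replicates 1, 2 and 3 gave 2, 2 and 6. Of 9 eosinophil, mast cell and basophil markers in the files, only Kit was tested, which the lung also carries outside mast cells, and it fell from 51.5 ± 16.7 to 17.4 ± 8.41 CPM (-1.65 ± 0.39, adjusted p = 0.0149).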
